A study of Mus musculus with 6 samples.

Results

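The genes described are 10 transcripts for receptors, a ligand and signal transducers of the cytokines that form the niche of alveolar macrophages. They were chosen by symbol. Csf2ra and Csf2rb stand for GM-CSF, with Csf2rb2 as a mouse copy of Csf2rb, and Csf1r stands for M-CSF. Tgfbr1, Tgfbr2 and Tgfb1 stand for TGF-beta, and Il4ra for IL-4 and IL-13. The transducers are Stat5a and Stat6. All 10 had a row among the 46078 genes of the count table, and all 10 were among the 15147 genes that passed the filter on low counts. Alveolar macrophages, which live in the airspaces and clear surfactant and inhaled particles, had been sorted from mouse lung, and their polyadenylated RNA was sequenced, with 1 library per mouse. Car4fl/fl-CD11cCre mice (3 mice, here Cre) carried loxP-flanked Car4 alleles, the gene of the membrane-anchored carbonic anhydrase 4, and a Cre recombinase under CD11c, the integrin chain encoded by Itgax. Car4fl/fl mice (3 mice, here control) carried the same floxed alleles without the Cre. All mice were untreated, and their age and sex are not used here. CD11c is also made by dendritic cells and other macrophages, so deletion need not have been confined to the sorted cells, and an effect of the Cre itself cannot be told apart from loss of Car4 because mice with the Cre and unfloxed Car4 are not part of the comparison.

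GM-CSF from alveolar epithelial cells signals through a cytokine-specific alpha chain and a shared beta chain to the kinase JAK2 and to STAT5, and is required for alveolar macrophages to form. TGF-beta binds the receptor kinase TGFBR2, which activates TGFBR1 and through it SMAD proteins, and is made by the macrophages themselves. M-CSF acts through the receptor tyrosine kinase encoded by Csf1r and sustains most other tissue macrophages, while IL-4 and IL-13 share the chain encoded by Il4ra and act through STAT6 on genes of alternative activation.

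The libraries held 53824475 to 65443314 counts, and Car4 itself was at 40.2, 46.9 and 36.3 CPM in the Cre libraries, against 499, 385 and 270 CPM in the control libraries (edgeR adjusted p = 0.0047). CPM is the count relative to library size, scaled by TMM, and 3 counts, taken here as the floor of detection, correspond to 0.0465 to 0.0557 CPM. All 15 alveolar macrophage markers looked for reached 1 CPM in every library. Before adjustment 3 were higher and 5, Car4 among them, were lower in Cre at an edgeR p under 0.05, against 6.54% and 6.28% of all tested genes. The summed level of the 8 neutrophil markers was 53.5 to 62.4 CPM in Cre and 41.3 to 56.3 CPM in control, most of it Mmp8, and 3 of the 8 reached 1 CPM in every library while Ly6g had no count. All 5 neutrophil markers that could be tested had higher means in Cre, 2 of them at an edgeR p under 0.05 before adjustment, against 6.54% of all tested genes. None of the 7 eosinophil and mast cell markers reached 1 CPM in every library. The summed level of 15 interstitial macrophage markers was 728, 1210 and 1378 CPM in Cre libraries 1, 2 and 3, against 608 to 649 CPM in the control libraries, so the 3 Cre libraries were unlike each other in this measure. Most of that sum was Gpnmb (530, 748 and 644 CPM in Cre, 426 to 462 CPM in control) and Apoe (97.4, 250 and 505 CPM in Cre, 87.4 to 106 CPM in control). Of the 15, 12 had higher and 3 (Lyve1, Folr2 and Cd163) lower fitted values in Cre, against 7482 and 7665 of all 15147 tested genes. The labels do not give litters or sorting days, and p-values measure the spread between these mice. In bulk RNA fewer cells of a type and less RNA per cell cannot be told apart.

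Csf2rb and Csf2rb2 need care before their values are read, because they are copies of each other. Csf2rb encodes the beta chain shared by the receptors of GM-CSF, IL-3 and IL-5, and Csf2rb2 a mouse copy that serves the IL-3 receptor. They lie 20030 bases apart on opposite strands of chromosome 15 (GRCm38), Csf2rb at chr15:78325752-78353847 on the plus strand and Csf2rb2 at chr15:78282507-78305721 on the minus strand. Their coding sequences, of 2688 and 2634 bases in GENCODE M21, were identical at 95.2% of 2628 aligned positions, and the longest identical run was 242 bases. A stretch of 120 identical coding bases is shown first, from 1 exon of each gene (Csf2rb chr15:78348577-78348696, Csf2rb2 chr15:78284752-78284871), as it stands in both:
Csf2rb and Csf2rb2: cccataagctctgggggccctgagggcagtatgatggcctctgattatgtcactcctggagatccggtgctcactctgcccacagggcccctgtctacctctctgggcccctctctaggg
The stretch of 120 coding bases that differs most has 22 differing bases, written in capitals, and spans 2 exons of each gene (Csf2rb chr15:78338898-78340471, Csf2rb2 chr15:78292838-78294433), read along each gene's own strand:
Csf2rb: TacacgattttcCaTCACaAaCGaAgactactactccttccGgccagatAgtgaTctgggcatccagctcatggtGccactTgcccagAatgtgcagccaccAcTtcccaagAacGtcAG
Csf2rb2: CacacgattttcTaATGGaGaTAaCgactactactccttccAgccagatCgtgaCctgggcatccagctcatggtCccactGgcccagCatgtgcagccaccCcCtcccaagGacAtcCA
Of the distinct 50-base words in Csf2rb transcripts 12.3% also occurred in another gene, and of those in Csf2rb2 18.9%, in both cases chiefly in the other copy. At 100 bases the shares were 4.63% and 6.82%. Reads from the identical stretches cannot be assigned to 1 copy, so the split of counts between the copies is uncertain, although most of each transcript can be told from the other.

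None of the 10 genes passed the adjusted threshold of 0.05 in edgeR's quasi-likelihood test, where 0.0132% of all 15147 tested genes did. At an unadjusted p under 0.05, 1 of the 10, Il4ra, was higher and 0 were lower in Cre, against 6.54% and 6.28% of all tested genes. DESeq2, limma-voom and edgeR without the filter also called 0 of the 10, where DESeq2 called 3.78% of the genes it gave an adjusted p. Over all genes limma-voom called 2 of 15147 and edgeR without the filter 523 of 27536. The 3 Cre and 3 control values did not overlap for 3 of the 10 (Il4ra above, Csf2rb and Stat5a below), against 8.63% of all tested genes above and 9.22% below, 17.9% in all. Fitted log2 fold changes of Cre over control lay between -0.13 and 0.18, with standard errors of 0.0552 to 0.114. The median absolute log2 fold change was 0.10 for the 10 genes and 0.11 for all tested genes. The 95% intervals of the fold change reached down to 0.828-fold for Csf2ra and up to 1.30-fold for Csf1r, and larger changes lay outside the interval of every member. These intervals are not adjusted for the number of genes.

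**Figure D1:**
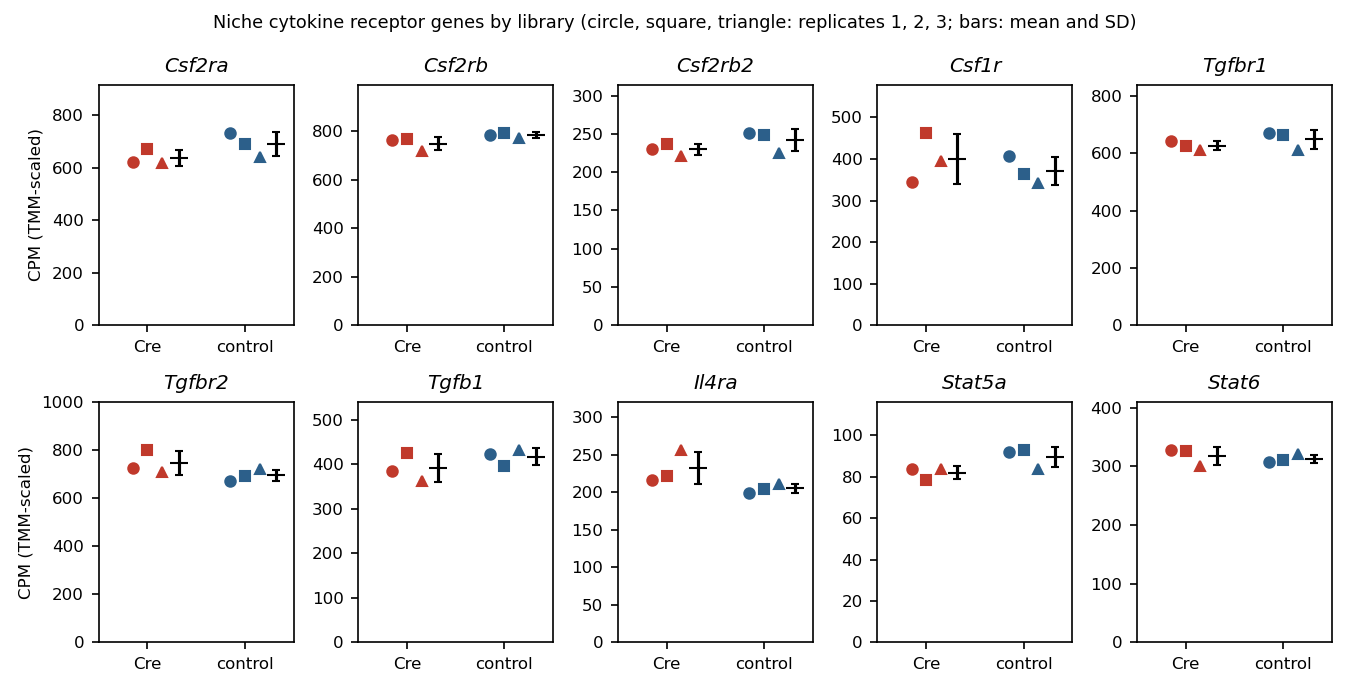
TMM-scaled CPM (y axis, from 0) of each of the 10 genes in the 3 Car4fl/fl-CD11cCre libraries (red, left) and the 3 Car4fl/fl libraries (blue, right), with circle, square and triangle for replicates 1, 2 and 3 and the mean and SD in black. The values of most genes interleave between groups, and Csf1r shows the widest spread in Cre, with 463 CPM in library 2 and 344 CPM in library 1.

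Csf2ra, the GM-CSF-specific alpha chain (ENSMUSG00000059326, chr19:61223957-61228429, minus strand, 9 exon blocks), was at 622, 671 and 617 CPM in the Cre libraries, against 733, 689.7 and 641 CPM in the control libraries. These groups overlapped, since Cre library 2 lay above control library 3. On the log2 scale the difference was -0.11 ± 0.07 (SE; edgeR adjusted p = 0.57). No 50-base word of its transcripts occurred in another annotated gene. Csf2rb was at 761, 765 and 716 CPM in Cre and at 785, 793 and 769 CPM in control. All 3 Cre values were below the 3 control values, by a margin that was small beside the spread within Cre. In edgeR the estimate was -0.07 ± 0.06 (log2 fold change and SE) at adjusted p = 0.698. Csf2rb2 was at 231, 236 and 222 CPM in Cre and at 252, 249 and 225 CPM in control. These values overlapped, and the adjusted p was 0.682 (edgeR) at a log2 fold change of -0.08 ± 0.06 (SE). With the counts of both copies summed to 1 gene, which does not depend on how shared reads were split, the log2 fold change was -0.07 and the adjusted p 0.7 (edgeR). Csf2ra, Csf2rb and the copy Csf2rb2 thus had lower means in Cre, and none passed the test.

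Stat5a, which encodes a transcription factor activated by GM-CSF (ENSMUSG00000004043, chr11:100859351-100885169, plus strand), was at 83.9, 78.3 and 84.0 CPM in Cre and at 91.8, 93.0 and 84.0 CPM in control. The groups met at 84.0 CPM, where Cre library 3 and control library 3 differed in the 2nd decimal. At -0.13 ± 0.06 (SE) its log2 fold change was the most negative of the 10 (edgeR adjusted p = 0.421). Of the 50-base words of Stat5a 8.52% occurred in Stat5b or Stat3, so part of its reads could not be assigned by sequence. Stat5b, the paralogous transcription factor, was at 117 ± 5.19 CPM in Cre and 118 ± 3.14 CPM in control (SD, n = 3 each).

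Csf1r, the M-CSF receptor (ENSMUSG00000024621, chr18:61100598-61132149, plus strand, 24 exon blocks), was at 344, 463 and 394 CPM in Cre and at 407, 363 and 341 CPM in control. Cre libraries 1 and 3 lay within the control range, and Cre library 2 stood above every control library. Csf1r had the largest coefficient of variation of the 10 genes in both groups, 14.9% in Cre and 9.05% in control. The log2 fold change of 0.11 ± 0.11 (SE) had an edgeR adjusted p of 0.76, and it was -0.0060 without Cre library 2. Of the Cre libraries, library 1 was lowest both in Csf1r and in the summed interstitial macrophage markers, whereas Csf1r was highest in library 2 and those markers in library 3. Their part in the spread of Csf1r was not tested. Hmgxb3 on the opposite strand shares 873 exon bases with Csf1r, 15.1% of its exon length, and without a stated strand setting reads there cannot be told apart. Hmgxb3 was at 30.7 ± 2.54 CPM in Cre and 30.1 ± 0.821 CPM in control (SD, n = 3 each).

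Tgfbr2, the ligand-binding TGF-beta receptor kinase (ENSMUSG00000032440, chr9:116084293-116175360, minus strand), was at 727, 801 and 709 CPM in Cre and at 673, 691 and 719.8 CPM in control. Cre library 3 lay within the control range and the other Cre libraries above it. The fit gave a log2 fold change of 0.10 ± 0.07 (SE) at an edgeR adjusted p of 0.593. Tgfbr1, the signalling kinase of the receptor pair (ENSMUSG00000007613, chr4:47353222-47414931, plus strand), was at 644, 625 and 612 CPM in Cre and at 673, 665 and 611 CPM in control, with full overlap. On the log2 scale the difference was -0.05 ± 0.06 (SE; edgeR adjusted p = 0.8). Tgfb1, the TGF-beta ligand that these macrophages make (ENSMUSG00000002603, chr7:25687002-25705077, plus strand), was at 385, 424 and 363 CPM in Cre and at 422, 396 and 432 CPM in control. Cre library 2 reached the control range and the other Cre libraries were below it. In edgeR the estimate was -0.09 ± 0.07 (log2 fold change and SE) at adjusted p = 0.66.

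Il4ra, the chain shared by the IL-4 and IL-13 receptors (ENSMUSG00000030748, chr7:125552120-125579474, plus strand), was at 217, 222 and 256 CPM in Cre and at 199, 205 and 212 CPM in control. Every Cre value was above every control value, and Cre library 3 was the highest. The fold was 1.13, with a 95% interval of 1.00 to 1.27, and the log2 fold change of 0.18 ± 0.07 (SE) had an unadjusted p of 0.0432 and an adjusted p of 0.375 (edgeR). Without Cre library 3 the log2 fold change was 0.10. The annotated antisense gene Gm44876 shares 571 exon bases, 9.51% of the exon length of Il4ra, and its reads could not be told apart without a strand setting. Stat6, the transcription factor activated through Il4ra (ENSMUSG00000002147, chr10:127642986-127660957, plus strand), was at 328, 326 and 299.8 CPM in Cre and at 307, 311 and 320.5 CPM in control. The Cre values lay on both sides of the control values, and the adjusted p was 0.917 (edgeR) at a log2 fold change of 0.02 ± 0.06 (SE).

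**Figure D2:**
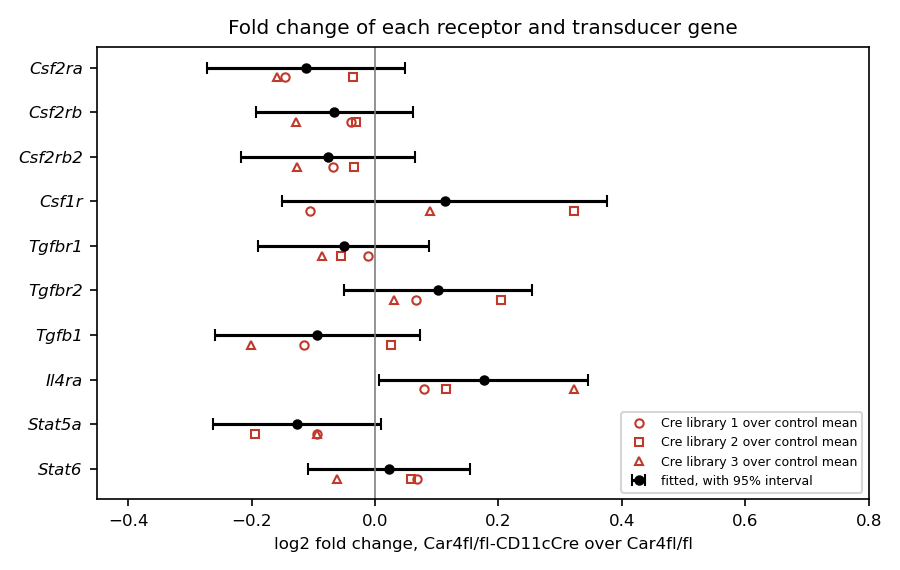
Fitted log2 fold change of Car4fl/fl-CD11cCre over Car4fl/fl (x axis, black points with 95% intervals from edgeR) for the 10 genes, and below each the log2 value of every Cre library over the mean of the 3 control libraries (red open symbols). All fitted values lie between -0.13 and 0.18, and the interval of Il4ra, from 0.01 to 0.35, is the one that leaves out 0.

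Ratios of 2 genes within a library do not depend on the scaling between libraries. There were 6 such ratios of counts, compared over 3 against 3 libraries, where the exact two-sided permutation test cannot give a p under 0.1. Il4ra over Stat6 was 0.661, 0.682 and 0.855 in Cre and 0.648, 0.658 and 0.66 in control, with no overlap (exact permutation p = 0.1, Benjamini-Hochberg adjusted p = 0.4). The gap between the groups was small in Cre library 1 and large in Cre library 3. Csf1r over Csf2ra, the M-CSF receptor relative to the GM-CSF receptor alpha chain, was 0.554, 0.69 and 0.639 in Cre and 0.556, 0.527 and 0.532 in control. Cre library 1 was within the control range and the others above it (exact permutation p = 0.2, adjusted p = 0.4). Tgfbr2 over Tgfbr1 was 1.13, 1.28 and 1.16 in Cre and 1.00, 1.04 and 1.18 in control (exact permutation p = 0.3, adjusted p = 0.45). Stat5a over Stat5b was 0.684, 0.696 and 0.722 in Cre and 0.8, 0.769 and 0.717 in control (exact permutation p = 0.2, adjusted p = 0.4). Csf2rb over Csf2ra was 1.14 to 1.22 in Cre and 1.07 to 1.20 in control (exact permutation p = 0.5, adjusted p = 0.6). Csf2rb2 over Csf2rb held at 0.303, 0.309 and 0.31 in Cre and 0.321, 0.314 and 0.293 in control (exact permutation p = 0.8, adjusted p = 0.8).

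To compare levels between genes, counts were divided by the length of each gene's merged exons and scaled to equal totals (TPM). Csf2ra was the highest of the 10 at 708 ± 21.2 TPM in Cre and 781 ± 35.7 TPM in control (SD, n = 3 each), above 99.0% of the tested genes. Its 3 Cre values lay below its 3 control values on this scale, whereas in CPM they overlapped. The scales differ in that TPM sets the totals of length-divided counts equal, and in that it has no TMM step. For Csf2rb and Il4ra the groups overlapped in TPM but not in CPM. Separation of the groups thus depended on the scale, and its share over all genes was not computed in TPM. Csf2rb (328 ± 13.1 TPM in Cre, 351 ± 12.0 TPM in control), Tgfbr1 (307 ± 12.8 TPM in Cre, 324 ± 14.6 TPM in control) and Tgfbr2 (291 ± 14.0 TPM in Cre, 277 ± 16.7 TPM in control) followed. In Cre libraries the values of Csf2rb and Tgfbr1, and those of Tgfbr1 and Tgfbr2, overlapped, whereas in control libraries each pair was separate. Tgfb1 (247 ± 16.2 TPM in Cre, 269.7 ± 12.1 TPM in control) overlapped Stat6 in Cre and Tgfbr2 in control. Stat6 (231 ± 12.4 TPM in Cre, 232 ± 11.2 TPM in control) and Csf1r (221 ± 28.1 TPM in Cre, 209 ± 13.1 TPM in control) overlapped in both groups. Csf2rb2 (155 ± 4.52 TPM in Cre, 166 ± 8.76 TPM in control), Il4ra (123 ± 11.7 TPM in Cre, 112 ± 6.48 TPM in control) and Stat5a (36.8 ± 2.21 TPM in Cre, 41.0 ± 2.27 TPM in control) were separate from their neighbours in both groups, and Stat5a, above 75.0% of the tested genes, was the lowest. The order of the 10 mean levels was the same in Cre and control libraries. Merged exon length counts every annotated exon, so a gene whose macrophage transcript is short has its level understated.

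**Figure D3:**
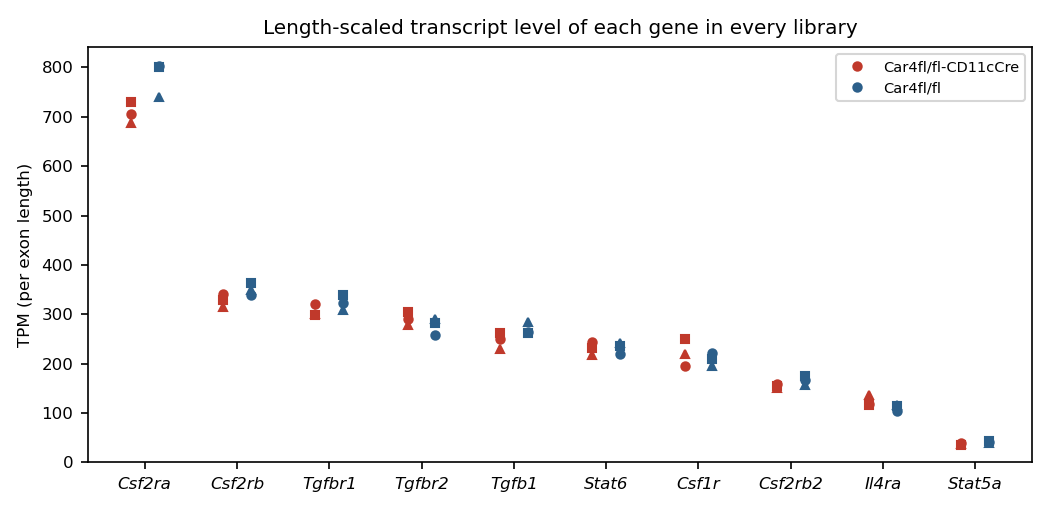
Length-scaled level in TPM (y axis, from 0) of the 10 genes in each Car4fl/fl-CD11cCre library (red, left of each pair) and each Car4fl/fl library (blue, right), with circle, square and triangle for replicates 1, 2 and 3 and genes ordered by their control mean. Csf2ra stands alone at the top, Csf2rb, Tgfbr1 and Tgfbr2 follow, and Stat5a is lowest.

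The other genes of the 4 pathways were read from lists of ligands, transducers and responding genes. None of their members passed the adjusted threshold in edgeR, so each list is given by its counts at an unadjusted p under 0.05, by the other tools and by its median. Of the GM-CSF list 17 of 21 genes were tested, and 1 higher and 3 lower had an edgeR p under 0.05 before adjustment, against 6.54% and 6.28% of all tested genes, with a median log2 fold change of -0.01 against -0.0019 for all tested genes. DESeq2, which called 3.78% of all genes it gave an adjusted p, called 1 higher and 2 lower. With limma-voom, which called 2 of all 15147 genes, 0 were called. Csf2, the GM-CSF gene itself, was at or under 0.031 CPM in the Cre libraries and at or under 0.0176 CPM in the control libraries, below the floor of 3 counts. Bhlhe40, a transcription factor gene induced by GM-CSF, was at 364, 367 and 424 CPM in Cre and at 454, 457 and 475 CPM in control, without overlap (log2 fold change -0.26 ± 0.07 SE, adjusted p = 0.195 in edgeR). Bcl6, a repressor that shares DNA sites with STAT proteins, was at 14, 14 and 15.8 CPM in Cre and at 18.7, 18.0 and 18.6 CPM in control (edgeR adjusted p = 0.159). Pim1, a kinase gene induced by STAT5 and chosen here after its values were seen, was at 232 ± 7.47 CPM in Cre and 259.7 ± 9.32 CPM in control (SD, n = 3 each), also without overlap. Socs3, a feedback inhibitor of cytokine receptors, was at 16.6, 23.3 and 27.3 CPM in Cre and at 17.0, 15.5 and 14.1 CPM in control, where Cre library 1 lay within the control range. Jak2, the kinase bound to the beta chain, was at 66.8 ± 3.43 CPM in Cre and 61.6 ± 2.32 CPM in control. The 2 most abundant genes of the list, the macrophage transcription factor gene Spi1 (491 ± 21.6 CPM in Cre, 533 ± 31.7 CPM in control) and the phosphatase gene Ptpn6 (429 ± 19.3 CPM in Cre, 466 ± 30.1 CPM in control), did not pass.

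Of the M-CSF list 13 of 14 genes were tested, and 3 higher and 0 lower had an edgeR p under 0.05 before adjustment, against the 6.54% and 6.28% of all tested genes given above, with a median log2 fold change of 0.05. DESeq2 (3.78% of all genes) called 3 higher and 0 lower, as did edgeR without the filter (523 of 27536 genes). With limma-voom (2 of 15147 genes) 0 were called. Csf1 and Maf were among the 3. Csf1, which encodes the ligand M-CSF, was at 2.38, 8.89 and 16.8 CPM in Cre and at 1.49, 1.13 and 1.21 CPM in control. Every Cre value was above every control value, and the Cre libraries differed among themselves by more than the control libraries did. The fit gave a log2 fold change of 2.87 ± 0.62 (SE) at an edgeR adjusted p of 0.157. Maf, a transcription factor gene that restrains self-renewal in macrophages, showed the same order of groups. Maf was at 1.76, 3.38 and 2.84 CPM in Cre and at 1.03, 1.08 and 1.34 CPM in control (edgeR adjusted p = 0.159). Of the 15 tested interstitial macrophage markers 10 were higher and 1 was lower at an unadjusted p under 0.05, none at 0 counts throughout. Csf1 was lowest in Cre library 1 and highest in Cre library 3, as was the summed level of that list. The summed lymphocyte markers ran the same way. So did the summed alveolar macrophage markers (29626, 38068 and 43073 CPM in Cre libraries 1, 2 and 3). Most of each sum was the 1 gene Chil3 (18927, 27945 and 32961 CPM), so their order does not show how the other markers ran. The part of any of these cells in these values was not tested. Il34, the other ligand of the receptor, reached at most 0.204 CPM in Cre and 0.141 CPM in control. The signalling genes Tyrobp (649 ± 48.7 CPM in Cre, 671 ± 46.6 CPM in control), Plcg2 (276 ± 19.7 CPM in Cre, 298 ± 8.04 CPM in control) and Pik3cd (173 ± 10.1 CPM in Cre, 186 ± 10.1 CPM in control) did not pass.

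Of the TGF-beta list 34 of 35 genes were tested, and 5 higher and 2 lower had an edgeR p under 0.05 before adjustment, where 6.54% and 6.28% of all tested genes did, with a median log2 fold change of -0.06. DESeq2 (3.78% of all genes) called 2 higher and 2 lower, as did edgeR without the filter (523 of 27536 genes). With limma-voom (2 of 15147 genes) 0 were called. Tgfb2, a second TGF-beta ligand gene, was at 5.19, 3.07 and 4.27 CPM in Cre and at 14.8, 17.0 and 8.24 CPM in control. The groups did not overlap, and control library 3 was the lowest of its group, as it was for Car4. On the log2 scale the difference in Tgfb2 was -1.68 ± 0.29 (SE; edgeR adjusted p = 0.146). Pmepa1, a TGF-beta-induced inhibitor of the pathway, was at 67.7, 48.3 and 67.2 CPM in Cre and at 83.7, 85.6 and 95.1 CPM in control (edgeR adjusted p = 0.17). Ltbp3, which encodes a binding protein of latent TGF-beta, was at 2.52, 6.63 and 6.67 CPM in Cre and at 1.93, 2.00 and 2.55 CPM in control, where Cre library 1 overlapped the control range. Runx3, a transcription factor gene that cooperates with SMAD proteins, was at 0.609, 0.759 and 1.13 CPM in Cre and at 0.232, 0.266 and 0.158 CPM in control. Tgfbi, a secreted matrix protein gene named for its induction by TGF-beta, was at 811 ± 53.2 CPM in Cre and 919.6 ± 79.7 CPM in control, and the protease gene Furin, which cleaves the TGF-beta precursor, at 597 ± 21.5 CPM in Cre and 610.0 ± 40.8 CPM in control. Neither passed.

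Of the list of IL-4 and IL-13 genes 21 of 25 were tested, and 6 higher and 1 lower had an edgeR p under 0.05 before adjustment, beside 6.54% and 6.28% of all tested genes, with a median log2 fold change of 0.12. DESeq2 (3.78% of all genes) called 4 higher and 1 lower, and edgeR without the filter (523 of 27536 genes) 5 and 1. With the replicate number as a block (10 of 15147 genes) edgeR called 2 and 0, and limma-voom (2 of 15147 genes) called 0. Il4 and Il13 themselves were too low to be tested, at no more than 0.39 and 0.13 CPM in Cre and 0.166 and 0.0528 CPM in control. Arg1, the arginase gene, was at 8.16, 72.2 and 192 CPM in Cre, against no more than 1.60 CPM in control (log2 fold change 6.50 ± 1.18 SE, edgeR adjusted p = 0.146). Chil3, a chitinase-like gene, was at 18927, 27945 and 32961 CPM in Cre and at 14629, 14423 and 17834 CPM in control (edgeR adjusted p = 0.185). Over Cre libraries 1, 2 and 3 the summed interstitial macrophage markers (728, 1210 and 1378 CPM, against 608 to 649 CPM in control) and the 12 summed lymphocyte markers (8.86, 12.4 and 14.9 CPM, against 7.17 to 8.799 CPM in control) stood in the same order as Arg1 and Chil3. So did the summed alveolar macrophage markers (29626, 38068 and 43073 CPM). Chil3 itself made up most of each of those sums, so their order does not show how the other alveolar macrophage markers ran. The summed eosinophil and mast cell markers also stood in the order of Arg1 and Chil3 (0.135, 0.201 and 0.241 CPM, against 0.211 to 0.399 CPM in control). The summed neutrophil, monocyte, dendritic cell, epithelial, and endothelial and mesenchymal markers did not. Between the groups, the monocyte sum, mostly Nr4a1, was lower in every Cre library (540 to 644 CPM, against 664 to 790 CPM in control). The endothelial and mesenchymal sum, mostly Vwf, was higher in every Cre library (178 to 196 CPM, against 146 to 157 CPM in control). The neutrophil, dendritic cell and epithelial sums overlapped between the groups. The part of any of these cells in the values of Arg1 and Chil3 was not tested. Retnla, Ccl24, Ccl17 and Mgl2, further STAT6-responsive genes, were named after their values were seen. Retnla was at 1.99, 1.78 and 63.6 CPM in Cre and at 0.598, 1.48 and 0.81 CPM in control, so Cre library 3 stood far above the rest. Ccl24, an eosinophil-attracting chemokine gene, was at 0.778, 1.04 and 40.4 CPM in Cre and at most 0.158 CPM in control. Ccl17, a T cell-attracting chemokine gene, was at 0.947, 12.6 and 16.4 CPM in Cre and at 0.614, 0.582 and 1.60 CPM in control, and the lectin gene Mgl2 at 1.83, 1.05 and 4.55 CPM in Cre and at 0.697, 0.931 and 0.827 CPM in control. Cre library 3 was the highest of all 6 libraries for these genes, but not for Klf4 and Ccl22, also chosen after their values were seen. Klf4, a transcription factor gene induced through STAT6, was at 483, 364 and 399 CPM in Cre and at 486, 442 and 551 CPM in control. The chemokine gene Ccl22 was at 7.67, 5.16 and 9.42 CPM in Cre and at 10.9, 10.2 and 8.61 CPM in control. Among the Cre libraries alone, library 3 was thus the highest for Ccl22 but not for Klf4. The mannose receptor gene Mrc1 was at 2643 ± 23.8 CPM in Cre and 2487 ± 17.1 CPM in control (SD, n = 3 each), without overlap and without a call. Egr2, an IL-4-induced transcription factor gene, ran the other way, at 200, 178 and 241 CPM in Cre and 266, 268 and 265 CPM in control (edgeR adjusted p = 0.204). Il13ra1, the second chain of the IL-13 receptor, was at 128 ± 5.77 CPM in Cre and 151 ± 22.9 CPM in control, with an adjusted p of 0.401 (edgeR).

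**Figure D4:**
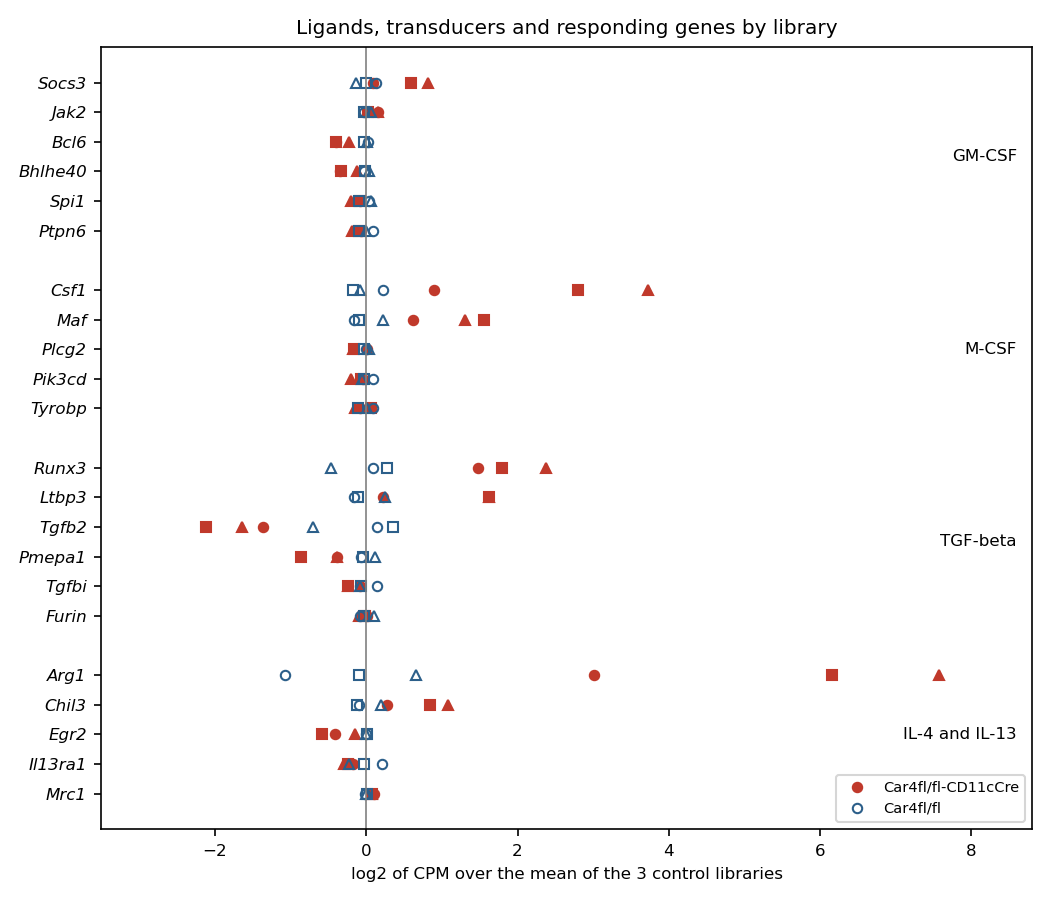
Log2 of CPM over the mean of the 3 control libraries (x axis) for the named genes of the 4 pathway lists, in the Car4fl/fl-CD11cCre libraries (red, filled) and the Car4fl/fl libraries (blue, open), with circle, square and triangle for replicates 1, 2 and 3. Csf1, Maf, Runx3, Arg1, Chil3 and Mrc1 have all 3 Cre values above the control values, as 8.63% of all tested genes do. Bcl6, Bhlhe40, Tgfb2, Pmepa1 and Egr2 have all 3 below, as 9.22% of all tested genes do. Arg1 is spread from 8.16 to 192 CPM over the Cre libraries, while Jak2, Tyrobp, Furin and Mrc1 stay near 0.

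Among 8361 ranked genes that averaged 10 CPM or more, those whose log2 CPM over the 6 libraries was most like a member were Srpk2, Ino80b and Bola3 for Csf2ra (Pearson r = 0.995, 0.994 and 0.993). For Csf1r they included Zfp738 and Tspo (r = 0.988 for both), for Tgfbr2 B3glct, Galm and Naa40 (r = 0.995, 0.985 and 0.984), and for Il4ra Hk3, Birc3 and Sh3kbp1 (r = 0.991, 0.989 and 0.981). With 6 libraries and so many genes such values are a description of these libraries only, and no other member was among them.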

How the data were processed

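Alveolar macrophage RNA of 6 mice was sequenced after polyA capture. What the authors deposited is 1 table of raw, whole-number read counts for each gene. Per the submitters' processing notes, which give no role or order, the tools were STAR 2.6.1, StringTie 2.0, featureCounts 1.6.4, cutadapt 2.5, bcl2fastq 2.20.0.422, FastQC 0.11.8, SAMtools 1.9, Picard 2.21.1, DESeq2 1.22.1 and edgeR 3.26.5, on GRCm38. Annotation release, strand setting and the treatment of reads matching several genes: not given in the sources used here. Each column was matched to its mouse by the library name in that mouse's labels.

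The main test used edgeR 4.0.16 (R 4.3.3): filterByExpr by group (minimum count 10), TMM, estimateDisp, glmQLFit and glmQLFTest, two-sided, Benjamini-Hochberg over 15147 genes, threshold 0.05, with no covariate. The biological coefficient of variation was 14.4%. Standard errors are the absolute log2 fold change over the square root of F, and 95% intervals use the test's degrees of freedom. The code was tested on simulated data. Libraries of a group all differed by more than sampling noise (chi-square per degree of freedom 19.6 to 51.4).

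Loci, merged exon lengths and shared words come from GENCODE M21 (GRCm38), which held 45143 of the 46078 identifiers. Coding sequences were aligned with Biopython 1.88. The members and lists were chosen with earlier results of these data known. Named were all members, and of each pathway list the 2 genes of smallest p in each direction and the 2 of highest mean, with exceptions stated. Some genes that the rule or the lists hold are not reported here. Alternatives used DESeq2 1.42.0, limma 3.58.1, other scalings and filters, robust dispersions, a replicate block, and leaving out each library. Figures were drawn with matplotlib 3.10.9.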

Additional observations from a re-analysis of the deposited data

How the results depend on the processing

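For the 10 receptor and transducer genes, 149 fold changes were computed under the alternatives (other scalings, tools and filters, robust dispersions, a replicate block, the beta chain copies summed, and each library left out). None was called, the smallest adjusted p was 0.251 (Stat5a without control replicate 3, edgeR), and 147 kept their sign. The sign turned for Stat6 without Cre replicate 1, where leave-one-out log2 fold changes ran from -0.0068 to 0.0635, and for Csf1r without Cre replicate 2, where they ran from -0.0060 to 0.204. Leaving out 1 library moved other log2 fold changes by over 1.5 times as well. Csf2ra ran from -0.17 to -0.065 (smallest without control replicate 1), Csf2rb from -0.085 to -0.035 (without Cre replicate 3), Csf2rb2 from -0.13 (without control replicate 3) to -0.047 (without control replicate 1), and Tgfbr1 from -0.097 (without control replicate 3) to -0.025 (without control replicate 1). Tgfbr2 ran from 0.047 (without Cre replicate 2) to 0.14, Tgfb1 from -0.16 (without Cre replicate 2) to -0.042 (without Cre replicate 3), and Il4ra from 0.098 (without Cre replicate 3) to 0.22. The number of the 10 at an unadjusted p under 0.05, counted with each library left out after seeing the data, was 0 or 1, and 1 in the main test. It was 0 without Cre replicate 3, control replicate 1 or control replicate 2. Without control replicate 3 the gene was another one, Stat5a, lower in Cre (log2 fold change -0.176, edgeR unadjusted p = 0.0183). Il4ra stayed higher there, at a log2 fold change of 0.194 (edgeR unadjusted p = 0.0576). For the TGF-beta list the same count was 7, against 11 without Cre replicate 1 and 4 without control replicate 3. The median log2 fold change of all genes moved by less than 0.1 under every scaling, from -0.0095 to 0.0012.

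Over all tested genes edgeR called 2, DESeq2 561, edgeR without a filter on low counts 523, edgeR with robust dispersions 1 and edgeR with the replicate block 10. Leaving out 1 library gave 1 to 286 calls: 286 without Cre replicate 1, 67 without control replicate 3, 9 without Cre replicate 2 and 1 without control replicate 2. The cause was not tested. Replicate numbers were not taken as pairs in the main test. The deviations of same-numbered Cre and control libraries correlated at -0.0450, -0.199 and 0.0327 across genes, and those of unlike-numbered libraries at -0.196 to 0.244. Such values cannot decide whether mice shared a litter or sorting day, because the labels give neither and deviations within a group of 3 depend on each other.

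The 10 genes had 4520 to 51668 counts in each library. The ligand genes Csf2 and Il13 lay near or under the floor of 3 counts, where differences are not detectable.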
